A study of Capra hircus with 6 samples.

Results

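Proteoglycan genes of the extracellular matrix, namely VCAN, DCN, BGN, LUM, FMOD, PRELP, ASPN, OGN, HSPG2, and AGRN, are described here in dermal papilla cells (DPCs) of secondary hair follicles treated with all-trans retinoic acid (ATRA). The genes were taken by symbol from the deposited table of read counts, where all 10 of them were found among 15944 genes listed, and all 10 passed the expression filter that left 12588 genes for testing. The cells were wild type primary cultures of Capra hircus (Albas cashmere goat, 3 years old), grown from scapular skin and used between passages 4 and 7. The ATRA-treated group (3 libraries) received ATRA at 100 µM for 24 h, and the control group (3 libraries) received culture medium alone. The study's methods give cells of 3 animals, and the labels do not tie a library to an animal, so p-values measure the spread between these cultures. All 6 libraries carry the same batch number.

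A proteoglycan is a core protein that carries long sulfated sugar chains, the glycosaminoglycans. Versican (VCAN) is a large core protein that binds hyaluronan and forms hydrated aggregates, and it is a classical marker of the inductive dermal papilla. The small leucine-rich proteoglycans (DCN, BGN, ASPN, LUM, FMOD, PRELP, and OGN) bind collagen and help to set the width and spacing of its fibrils, and several of them also bind growth factors of the TGF-β family. Perlecan (HSPG2) and agrin (AGRN) carry heparan sulfate and belong to basement membranes, such as the sheet that separates the papilla from the hair matrix epithelium.

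The control libraries held 36887160 to 38012771 counts and the ATRA libraries 35532339 to 36870939. Counts were scaled by TMM, which assumes that most genes do not change, with factors of 0.842 to 0.851 for control libraries and 1.16 to 1.20 for ATRA libraries. The log₂ fold change (log₂FC, ATRA over control) had a median of 0.04 over the tested genes, and of 0.52 with library size only, so that log₂FC values here are relative to the TMM scaling. The treatment label was checked on retinoid targets. DHRS3, an enzyme of retinoid metabolism, had 86, 118, and 128 counts in the control libraries and 20093, 18720, and 19192 with ATRA, and the receptor gene RARB had 2, 2, and 1 counts against 108, 91, and 82 with ATRA. A retinoid response list held 8 genes, of which CYP26A1 and CYP26B1 were not among the genes in the deposited counts. Of the 6 tested, 5 rose and none fell, beside 40.9% and 38.7% of all tested genes. CRABP2 rose by only 0.22 on the log2 scale, a call that was lost with R's t.test function (adjusted p = 0.0842).

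The cell type label was checked on marker genes. Of 12 dermal papilla markers, a list that includes VCAN itself, 8 were tested. In the control group ACTA2 stood at 6582 ± 462 normalized CPM (SD, n = 3), BMP4 at 406 ± 18.7, and RSPO3 at 275 ± 6.27. The other tested markers were far lower there, with LEF1 at 16.1 ± 1.63, HEY1 at 5.75 ± 0.389, WIF1 at 2.87 ± 0.315, and SOX18 at 0.262 ± 0.0241. ACTA2 may share reads with the near-identical ACTG2 and is uncertain for that reason. ALPL, CORIN, and PROM1 had at most 1 count in any library, and SOX2 had 0 to 5 counts in the control libraries. With ATRA, SOX2 had 10, 16, and 9 counts. RNA of these defining markers was thus absent or nearly so in the control group. The paper reports positive immunofluorescence for CD133 and α-SMA, the proteins of PROM1 and ACTA2. How RNA and protein relate in these cells was not tested. The summed level of the 9 fibroblast and mesenchymal markers ranged from 83687 to 84763 CPM in the control group and from 4822 to 5235 with ATRA. Of these 9, 8 fell (with library size only 7 fell and 1 rose), among them VIM, COL1A1, and THY1. The markers were not alike, since PDGFRB had a log₂FC of only -0.44 and TWIST1, at -0.14, did not pass (adjusted p = 0.0523). Of the 8 dermal papilla markers tested, 7 fell (6 with library size only), and none rose. Beside both lists, 38.7% of all tested genes fell and 40.9% rose. Summed markers of other cells were low in both groups but higher with ATRA for each cell type. They were 3.11 to 4.98 CPM against 5.37 to 5.97 for keratinocytes and 0.903 to 1.24 against 6.26 to 9.18 for endothelial cells. For leukocytes they were 9.24 to 12.9 against 41.3 to 44.2, and for melanocytes 16.1 to 17.6 against 32.2 to 39.0. Single markers did not all move alike. KRT10 rose by 0.82 on the log2 scale, while KRT14 had 20, 14, and 10 counts against 3, 0, and 0. MITF rose by 1.33, while PMEL had a log₂FC of -0.90. Both tested leukocyte markers rose (CD14 by 2.18 and CD68 by 1.41). The calls of KRT10 and CD68 were lost with the t.test function. CDH5 had at most 1 count in any library, while PECAM1 had 0 counts in every control library and 206 to 340 with ATRA. The part of these differences in the results below was not tested.

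All 10 proteoglycan genes were lower in the ATRA-treated group, from 2.92-fold for BGN to 67.2-fold for ASPN. Each gene passed an adjusted p under 0.05 in edgeR's quasi-likelihood test, and each also passed the study's threshold of |log₂FC| above 1 with an unadjusted p under 0.05. In the background of all tested genes, an adjusted p under 0.05 was reached by 38.7% as lower and by 40.9% as higher. By the study's threshold, 17.3% of tested genes were lower and 13.7% higher, and among genes with a mean of at least 10 CPM, a level that 9 of the 10 members reached, 14.8% were lower. No member was higher at an unadjusted p under 0.05, in edgeR or in DESeq2. With library size only, the split of all calls by adjusted p became 2861 lower against 7921 higher, and the 10 members were still lower. Every ATRA library lay below every control library for each of the 10 genes, which was the case for 39.0% of all tested genes. In these bulk cultures, fewer cells that express a gene and less RNA per cell cannot be told apart.

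**Figure D1:**
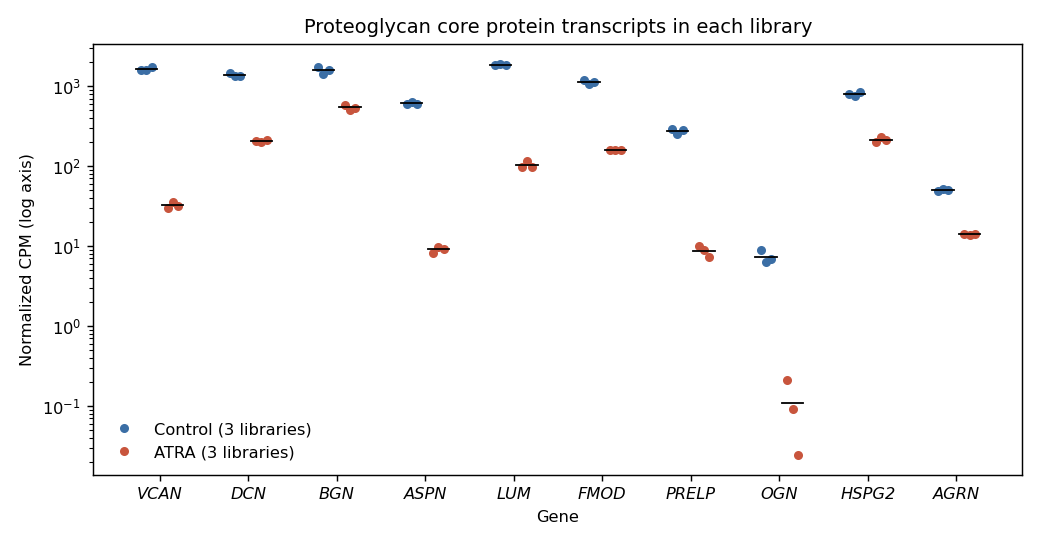
Normalized CPM (log axis) of the 10 proteoglycan genes in each of 6 libraries, with control libraries in blue, ATRA libraries in red, and the group mean as a black line. The groups are apart for every gene, with the widest gaps for ASPN, OGN, and VCAN and the narrowest for BGN.

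The reads of these 10 genes made up 0.791% ± 0.0170 of all control counts and 0.152% ± 0.00333 of those with ATRA (SD, n = 3 each). The median log₂FC of the 10 genes was -3.50, beside 0.04 for all tested genes. Within the family the small leucine-rich genes spanned the whole range, from -6.07 to -1.55, while the basement membrane pair lay close together at -1.90 and -1.82.

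VCAN, the large aggregating member, had 1607, 1601, and 1714 normalized CPM in the control libraries and 29.6, 35.8, and 31.9 in the ATRA libraries. The control libraries lay within a narrow band, and even the highest ATRA library was far below the lowest of them. The mean was 1641 ± 63.6 CPM without and 32.4 ± 3.11 with ATRA (SD, n = 3 each). The log₂FC was -5.66 (95% interval -5.83 to -5.49, standard error 0.0813, adjusted p = 2.79e-20). Its fall was at percentile 1.11 of the log₂FC of all tested genes.

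Decorin and biglycan are close relatives that carry chondroitin or dermatan sulfate, and they moved by different amounts. DCN, which wraps collagen fibrils and binds TGF-β, had 1477, 1355, and 1343 CPM in the control libraries and 207, 200.4, and 209.6 with ATRA. BGN, found at the cell surface and around cells as well as on collagen, had 1719, 1436, and 1587 CPM in the control libraries and 584, 505, and 534 with ATRA. Neither gene had any overlap between the groups, but the gap was wider for DCN. The log₂FC was -2.76 for DCN (standard error 0.0624, adjusted p = 9.01e-18) and -1.55 for BGN (standard error 0.0726, adjusted p = 5.40e-13). BGN had the smallest fall of the 10 genes, at 34.2% of the control level.

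A ratio of counts between a pair of genes in the same library does not depend on how the libraries are scaled. The DCN to BGN ratio was 0.859, 0.944, and 0.846 in the control libraries and 0.354, 0.397, and 0.393 with ATRA. It was thus lower in all 3 ATRA libraries, by 2.32-fold. A two-sided exact permutation test gave p = 0.1, which is the lowest value reachable with 3 libraries a group.

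Asporin (ASPN), the third gene of the same class, binds collagen and TGF-β but lacks the usual sugar chain. It had 595, 632, and 596 CPM in the control libraries and 8.19, 9.77, and 9.18 with ATRA. The control values differed by little, and no ATRA library came near them. The log₂FC of -6.07 (95% interval -6.23 to -5.91, standard error 0.0781, adjusted p = 8.73e-21) was the largest fall of the 10 genes, at rank 118 from the lowest log₂FC of all tested genes.

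Lumican, fibromodulin, and PRELP form a class of related collagen-binding proteins, of which lumican and fibromodulin carry keratan sulfate. LUM had 1850.5, 1916, and 1828 CPM in the control libraries and 96.6, 117, and 96.4 with ATRA. FMOD had 1177, 1078, and 1119.6 CPM in the control libraries and 159.7, 158, and 159 with ATRA. The coefficient of variation of the ATRA libraries was 0.423% for FMOD and 11.5% for LUM, and both genes were apart from the control group. The log₂FC was -4.17 for LUM (standard error 0.0800, adjusted p = 9.67e-19) and -2.82 for FMOD (standard error 0.0604, adjusted p = 4.41e-18).

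LUM and FMOD therefore differed in size of fall. The LUM to FMOD ratio was 1.57, 1.78, and 1.63 in the control libraries and 0.605, 0.740, and 0.605 with ATRA, with no overlap. It was 2.56-fold lower with ATRA (p = 0.1 by the same exact test, its lowest value).

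PRELP, a heparin- and collagen-binding anchor between basement membrane and connective tissue, had 289, 249, and 286 CPM in the control libraries and 9.97, 8.96, and 7.27 with ATRA. The groups did not overlap, and the control level was far above the spread in either group. The log₂FC was -4.97 (standard error 0.0974, adjusted p = 3.38e-18), a 31.4-fold fall.

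Osteoglycin (OGN), a small member of another class that was first described in bone, was measured on few reads. Its counts were 276, 204, and 223 in the control libraries and 9, 4, and 1 with ATRA. The ATRA libraries were all far below the control libraries but differed among themselves by several fold. Summed over libraries, 14 counts against 703 put the gene at 1.48% of the control level, with an exact 95% binomial interval of 0.804% to 2.50% that covers counting error only. The fitted log₂FC was -6.04 (standard error 0.315, adjusted p = 2.79e-12), and without ATRA replicate 1 it was -6.90.

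Perlecan (HSPG2), the main heparan sulfate proteoglycan of basement membranes, had 809, 756, and 837 CPM in the control libraries and 202, 228, and 211 with ATRA. Agrin (AGRN), which links laminin to receptors on the cell surface, had 48.3, 51.0, and 50.0 CPM in the control libraries and 14.3, 13.6, and 14.3 with ATRA. Both genes were lower in every ATRA library, with no overlap. The log₂FC was -1.90 for HSPG2 (standard error 0.0641, adjusted p = 3.43e-15) and -1.82 for AGRN (standard error 0.0733, adjusted p = 5.15e-14). The AGRN to HSPG2 ratio was 0.0598, 0.0674, and 0.0597 in the control libraries and 0.0705, 0.0596, and 0.0679 with ATRA, and the groups overlapped. The difference of 0.08 on the log2 scale was not apart from the spread (p = 0.4 by the same exact test), which does not show that the pair moved alike.

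**Figure D2:**
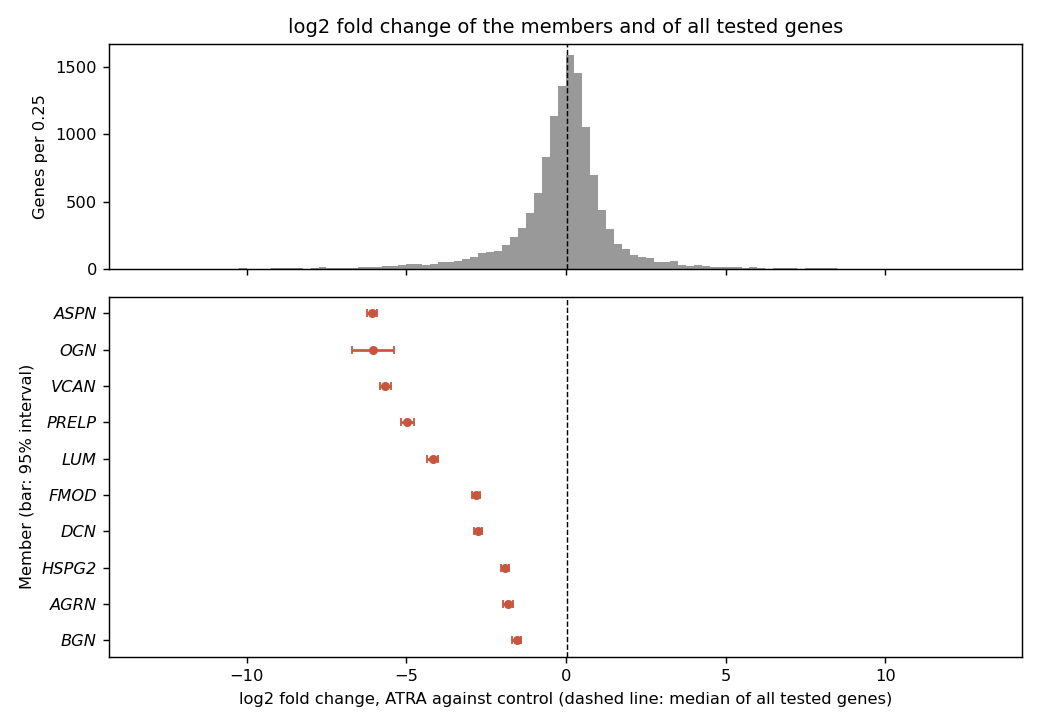
Upper panel, number of tested genes per 0.25 of log₂FC. Lower panel, log₂FC of each member with its 95% interval, where negative values mean lower with ATRA. The 10 members lie between -6.07 and -1.55, all to the left of the median of all tested genes (dashed line, 0.04).

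Ordered by log₂FC, the members fell into steps. ASPN and OGN differed by 0.03 (combined standard error 0.325) and OGN and VCAN by 0.38 (0.326), so the place of OGN beside these genes was not resolved. ASPN and VCAN themselves were 0.41 apart (0.113). VCAN, PRELP, LUM, and FMOD followed each other at distances of 0.69, 0.80, and 1.35, from 5.42 to 13.5 times the combined standard error. FMOD and DCN differed by 0.06 (0.0868), and HSPG2 and AGRN by 0.08 (0.0973), both within the error. Between these pairs, DCN and HSPG2 were 0.85 apart (0.0894). AGRN and BGN were 0.28 apart (0.103). The combined standard error treats 2 genes as independent, although both are read from the same 6 libraries, so it is only a rough guide. No test was run on these distances. In the annotation deposited with the counts, DCN and FMOD share the KEGG pathway of TGF-β signaling, while HSPG2 and AGRN share that of ECM-receptor interaction. The pathway of proteoglycans in cancer is given to DCN, LUM, and HSPG2, whose log₂FC were unlike (-2.76, -4.17, and -1.90). Whether annotation goes with the size of the fall was not tested.

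The make-up of the proteoglycan reads differed between the groups. BGN took 16.9% ± 1.07 of the reads of the 10 genes without ATRA and 42.0% ± 2.50 with it, while VCAN took 17.6% ± 0.764 and 2.52% ± 0.271 (SD, n = 3 each). LUM took 19.3% to 21.1% in the control libraries and 7.37% to 9.17% with ATRA. ASPN went from 6.51% ± 0.394 to 0.704% ± 0.0720, and HSPG2 from 8.57% ± 0.322 to 16.6% ± 1.22. The shares of DCN (14.3% to 15.4% against 15.7% to 16.5%) and FMOD (11.9% to 12.3% against 12.2% to 12.5%) moved by little. These shares count reads and are not corrected for transcript length, so they compare a gene between groups and do not rank genes by the number of transcripts. The VCAN to DCN ratio was 1.09, 1.18, and 1.28 in the control libraries and 0.143, 0.178, and 0.152 with ATRA. It was 7.50-fold lower (p = 0.1 by the same exact test, its lowest value).

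**Figure D3:**
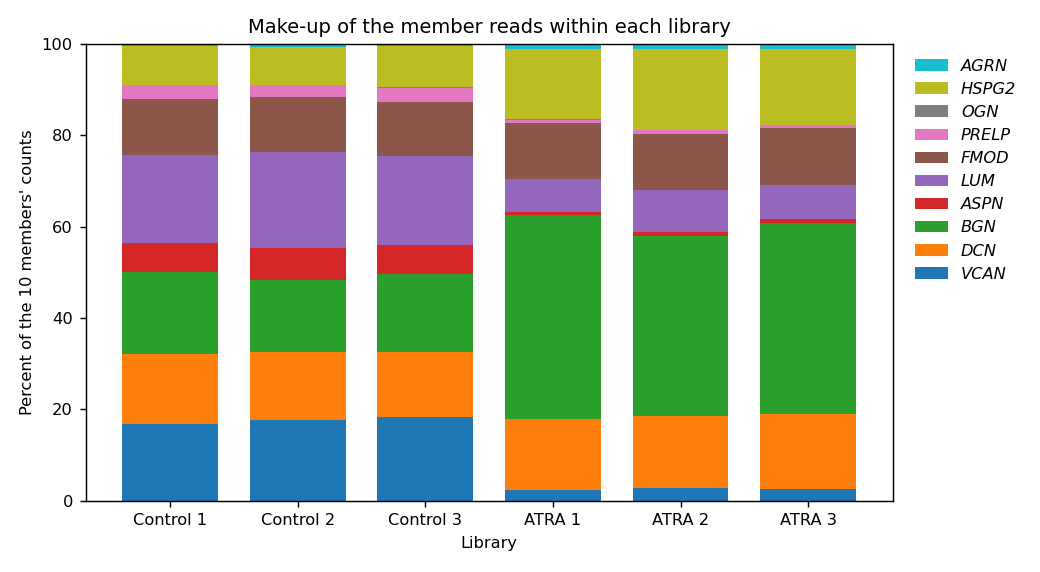
Percent of the reads of the 10 genes that each gene took, by library. BGN (green) takes from 39.5% to 44.5% in the ATRA libraries and from 15.8% to 17.9% in the control libraries, while VCAN (blue) and LUM (purple) shrink.

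Several of the small leucine-rich genes lie next to each other in the genome, a property that was not used to choose them. Gene order was read from RefSeq's annotation of the goat assembly ARS1.2, in which all 10 members were found, and since the build behind the counts is not given in the sources used here, no positions are given. OGN, OMD (osteomodulin), ASPN, and ECM2 are consecutive. LUM and DCN are neighbours beside KERA and EPYC, and FMOD and PRELP are neighbours beside OPTC.

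In the OGN to ECM2 cluster, all 4 genes fell. OMD had 200, 235, and 282 counts in the control libraries and 2, 1, and 1 with ATRA, which is 242-fold lower with an exact 95% counting interval from 93.9 to 889. ECM2, a matrix protein with leucine-rich repeats, had 2537, 2855, and 2898 counts and 27, 20, and 8 (log₂FC -7.65, standard error 0.152, adjusted p = 3.42e-18). The annotated span of CENPP, a kinetochore gene, overlaps OGN, OMD, ASPN, and ECM2, and CENPP fell by 6.44 on the log2 scale, with 265, 294, and 244 counts against 5, 4, and 3. The strand setting of the counting is not given in the sources used here, so reads of CENPP and of these genes may not be told apart, which matters most for OGN and OMD with their few reads. Next to the cluster, IARS had a log₂FC of -0.77 and IPPK of -0.96, while NOL8 and BICD2 had -0.24 and -0.15, and with library size only these last values turned to 0.24 and 0.32.

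Around the other clusters, neighbours moved both ways. BTG1 next to DCN rose by 1.82 and BTG2 next to FMOD rose by 2.37 on the log2 scale, both anti-proliferative genes. CHI3L1, on the far side of BTG2, fell by 3.02. KERA and EPYC had at most 1 count in any library, and OPTC at most 2. VCAN lies between HAPLN1, a link protein gene with 0 to 9 counts per library, and the repair gene XRCC4, whose log₂FC was -0.49 and moved to -0.01 with library size only. Over the clusters and the other members with a placed position, 25 tested genes among the 3 nearest on each side had a median log₂FC of -0.77, of which 19 fell and 5 rose, beside 38.7% and 40.9% of all tested genes. With library size only 12 fell and 9 rose (median -0.29). CENPP, whose span overlaps the OGN to ECM2 cluster, is counted among these 25 genes, as one that fell. The largest fall among them was that of EDIL3, next to HAPLN1 on the side away from VCAN (log₂FC -6.48, standard error 0.109). BGN has no chromosome in this assembly and was left out of these counts.

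**Figure D4:**
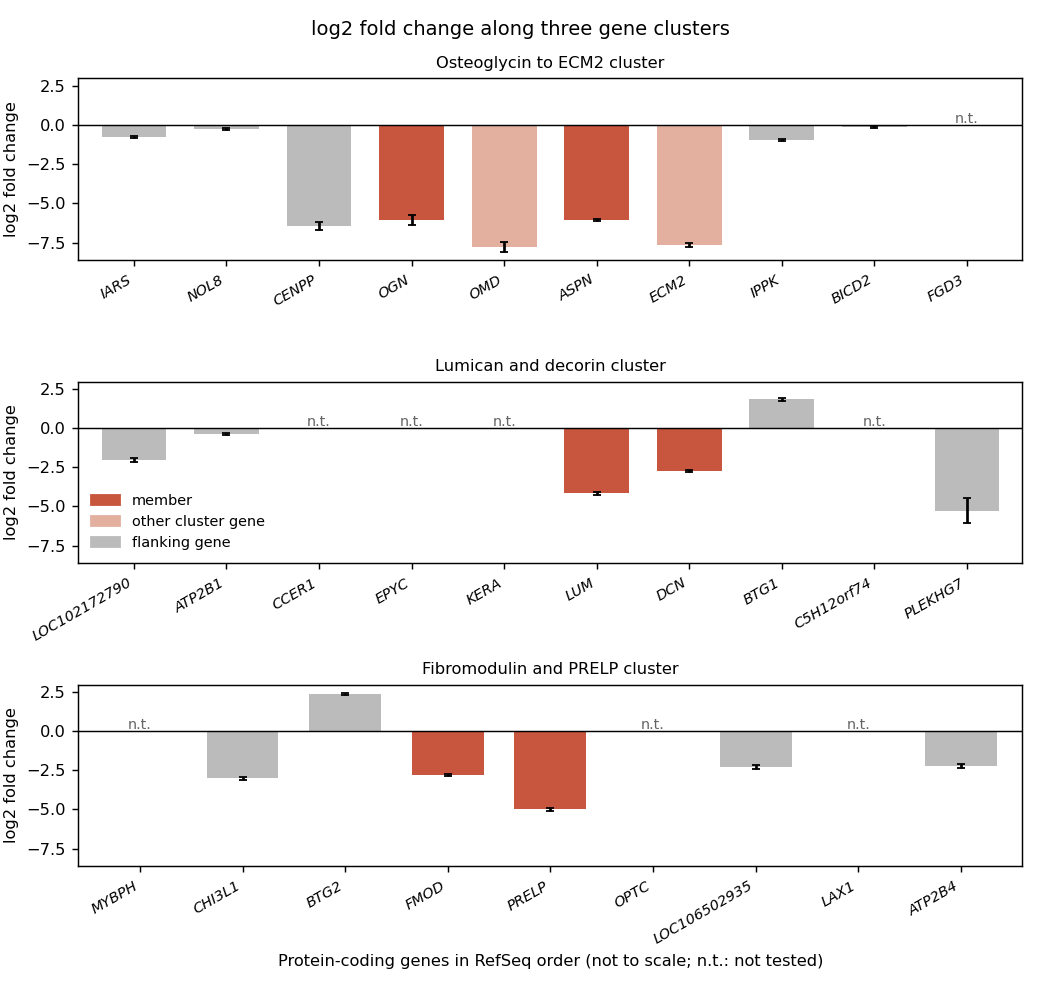
Bars give log₂FC with its standard error for consecutive protein-coding genes, with members in red, other genes of a cluster in light red, and flanking genes in grey. All 4 genes from OGN to ECM2 are between -7.77 and -6.04, while BTG1 and BTG2 rise beside DCN and FMOD.

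Genes related to the members were grouped by role, in lists chosen with earlier results of these data known. The counts of each list stand beside 38.7% of all tested genes called lower and 40.9% called higher at an adjusted p under 0.05. With library size only, 2861 of all 12588 tested genes were lower and 7921 higher. Of the other small leucine-rich repeat genes, 4 were tested, 3 of which fell (OMD, ECM2, and PODN at -2.15). TSKU had 40.2 ± 3.63 CPM in the control group and 44.1 ± 0.887 with ATRA (SD, n = 3 each), a difference that did not pass (adjusted p = 0.0986) and that passed as higher with upper-quartile scaling, with library size only (log₂FC 0.62), and without Control replicate 1 (adjusted p = 0.0264).

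Among other secreted proteoglycans and partners of versican, 6 of 9 tested genes fell and 3 rose, with a median log₂FC of -1.57 (5 and 3 with library size only). SRGN, the intracellular granule proteoglycan serglycin, fell by 4.85, the testican gene SPOCK1 had a log₂FC of -3.57, and the link protein gene HAPLN3 of -2.71. SPOCK2 rose from 0.157 ± 0.0317 to 0.641 ± 0.312 CPM (SD, n = 3 each), a call that was lost with the t.test function of the study's methods (adjusted p = 0.124). COL18A1 rose by 1.26 and HAPLN4 by 0.57 on the log2 scale. ACAN, the cartilage relative of VCAN, had at most 1 count in any library.

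Proteoglycans of the cell surface split in direction. Of 12 tested genes, 8 fell and 3 rose (median log₂FC -2.14). CSPG4, the NG2 proteoglycan of pericytes and other mesenchymal cells, fell by 4.73, while the syndecan gene SDC3 had a log₂FC of -3.94 and the glypican gene GPC4 of -3.58. SDC4, a syndecan of focal adhesions, rose from 167 ± 3.34 to 431 ± 16.3 CPM, and CD44, a hyaluronan receptor, from 250.3 ± 16.4 to 588 ± 24.7 (SD, n = 3 each). GPC2 also rose, by 2.10. The same 8 and 3 counts were found under every scaling tried.

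The enzymes that build the sugar chains had list medians nearer to 0 than the median of the 10 members. For the linker that joins chain to core, 4 of 7 tested genes rose and 1 fell, with a median log₂FC of 0.27. With library size only 6 rose and 0 fell (median 0.75), and with RLE size factors 4 rose and 2 fell. XYLT1, which adds the first sugar, rose by 0.75, B3GALT6 by 0.72, and the xylose phosphatase gene PXYLP1 by 0.52, while the xylose kinase gene FAM20B had -0.34, a direction that turned with library size only (0.14). For chondroitin and dermatan sulfate, 5 of 13 rose and 7 fell, beside 40.9% and 38.7% of all tested genes. With library size only 8 rose and 4 fell. CHST11, a chondroitin 4-O-sulfotransferase, rose by 2.11 and DSEL, a dermatan sulfate epimerase, by 1.53, whereas CSGALNACT1, which starts the chain, fell by 4.21 on few reads (2, 9, and 4 counts with ATRA, and a log₂FC of -4.91 without ATRA replicate 2), CHSY3 by 2.51, and CHST3 had a log₂FC of -1.61. CHST15 rose by 0.42.

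For heparan sulfate, the chain that perlecan and agrin carry, 9 of 13 tested genes fell and 1 rose (median log₂FC -0.57), and with library size only 5 fell and 5 rose. HS6ST2, a sulfotransferase, fell by 3.36, and SULF1, which removes 6-O-sulfate, had a log₂FC of -1.75. HS6ST1 rose by 0.63. HS3ST3A1 had a log₂FC of -1.36 with overlapping groups. Its call was lost without Control replicate 3 (adjusted p = 0.117), with library size only (0.0766), and with the t.test function (0.246). For keratan sulfate, the chain of lumican and fibromodulin, 3 of 4 tested genes rose (4 with library size only). CHST1, the sulfotransferase of its galactose residues, had 6, 8, and 3 counts in the control libraries and 526, 468, and 452 with ATRA, 63.1-fold higher with an exact 95% counting interval from 39.3 to 109. ST3GAL1 rose by 0.91 and B4GALT4 by 0.39.

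Proteases that cut the core proteins included 5 genes that fell and 1 that rose among 6 tested, in every scaling. ADAMTS1, which cleaves versican, fell by 3.41, and ADAMTS9, another versican-cleaving enzyme, by 2.52. HTRA1, which degrades several of the small leucine-rich proteins, fell by 1.83. ADAMTS5, an aggrecanase that also cleaves versican, rose from 9.21 ± 0.375 to 33.8 ± 6.69 CPM (SD, n = 3 each).

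Among receptors and binding partners, 5 of 14 tested genes rose and 9 fell, beside 40.9% and 38.7% of all tested genes. With library size only 6 rose and 6 fell. The basement membrane linkers NID1 and NID2, which bind perlecan, fell by 2.11 and 1.88, and FN1 fell by 1.91. Rises were found for TLR2, an innate immune receptor that binds soluble biglycan (11, 19, and 12 counts against 430, 431, and 419), for the agrin receptor gene LRP4 (1.96), and for EGFR (1.58), to which decorin binds.

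**Figure D5:**
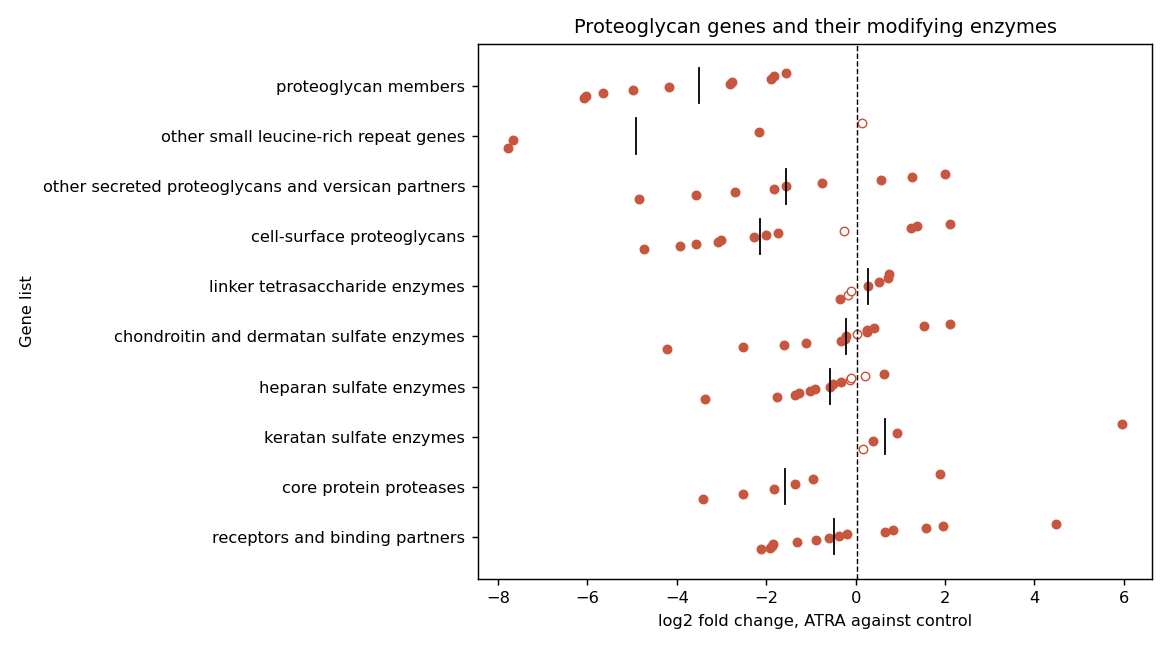
Each point is the log₂FC of a tested gene, filled where the adjusted p was under 0.05 and open where it was not, with the median of each list as a black tick and that of all tested genes as a dashed line. The 10 members and most other core protein genes lie to the left, while the enzyme lists lie closer to the median of all genes.

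By the smallest distance between centred log2 CPM profiles over the 6 libraries, the 5 genes nearest to VCAN were LRRC15, COL1A1, EFEMP1, KIAA1456, and TNFSF18, at distances of 0.233 to 0.326 and with log₂FC from -5.94 to -5.62. The 5 nearest to DCN were SERPINB1, FMOD, ACTB, HTRA3, and TLN2, at 0.0843 to 0.116 and with log₂FC from -2.83 to -2.69. With only 2 groups, such a distance reflects mainly the size of the difference between them. FMOD was the only member among these 10 genes, and ACTB may share reads with ACTG1.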

How the data were processed

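RNA-seq was performed by the authors on SHF-DPCs with or without ATRA (3 libraries each). Per the study's methods, poly(A) RNA was captured on oligo(dT) beads, and fastp and TrimGalore served to clean the reads. The submitters' processing notes name HISAT2, featureCounts, and DESeq2. The genome build, annotation, and strand setting are not given in the sources used here. The authors deposited raw counts of reads per gene, and every column of counts was used. A count model replaced the t.test function of R that the study's methods name, and the latter was kept as an alternative. It was run here on log2(CPM + 1), a scale that those methods do not state.

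Genes passing edgeR's filterByExpr were scaled by TMM and tested with the quasi-likelihood test (robust, two-sided, no covariate), with Benjamini-Hochberg adjustment over 12588 genes. Normalized CPM uses TMM-scaled library sizes. For log₂FC the prior count was 0.125. Its standard error is |log₂FC| divided by the square root of F. Exact permutation tests were used for ratios of counts within libraries. Intervals on summed counts cover counting error only. At this depth, low counts limit OGN, OMD, CSGALNACT1, HS6ST2, SPOCK2, CHST1, and RARB.

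The members and the gene lists were chosen with earlier results of these data known. Named genes are the members, up to 3 genes per list and direction with the largest |log₂FC| at an adjusted p under 0.05, and the 5 profiles nearest to VCAN and DCN. TSKU, ACAN, VIM, RSPO3, LEF1, HEY1, WIF1, SOX18, PDGFRB, TWIST1, KRT14, and CRABP2 were named outside that rule. So were genes at or near 0 counts, genes missing from the deposited counts, and the genes beside the members. Same-numbered libraries had correlations of -0.08 to 0.09 between their deviations from the group means, and differently numbered ones of -0.135 to 0.100. No pairing by animal could be read from these values, so libraries were not treated as pairs. No libraries of a group matched within sampling noise. The scripts were tested on simulated data. The software was edgeR 4.0.16, DESeq2 1.42.0, and limma 3.58.1 under R 4.3.3. No sequence was used here.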

Additional observations from a re-analysis of the deposited data

How the results depend on the processing

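All 10 members kept their direction and an adjusted p under 0.05 under the 16 alternatives (4 other scalings, 2 other filters, another prior count, DESeq2, R's t.test function, a block for the replicate number, and leaving out each library), and all 10 stayed below a log₂FC of -1 in each. The largest adjusted p was 0.00172, for LUM with the t.test function. Library size only gave the smallest falls for 9 of the 10 genes, with a log₂FC of -1.07 for BGN and -5.18 for VCAN. OGN moved most, to -2.91 on log2(CPM + 1) and over a range of -6.90 to -5.61 when each library was left out. With the replicate block the DCN to BGN difference was -1.21 (exact sign-flip test, p = 0.25, the smallest that 3 pairs allow), and the block changed no call of a member. All 4 ratios kept their direction.

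Over all genes, the counts by the study's threshold moved from 2174 lower and 1730 higher to 1471 and 3390 with library size only, and to 1820 and 1093 with the t.test function. At an adjusted p under 0.05 they were 4877 lower and 5151 higher, and 2861 and 7921 with library size only. Of 80 other named genes followed through the alternatives, 4 turned direction, all with library size only. They went to 0.14 for FAM20B, 0.24 for NOL8, 0.32 for BICD2, and 0.00155 for TMEM167A. Over 1276 values of these 80 genes a call was lost in 17 and gained in 3. PDGFRB, TWIST1, RSPO3, LEF1, HEY1, WIF1, SOX18, and KRT14 were not among the 80 genes. Each scaling multiplies all genes of a library by the same factor, so ratios within a library are unaffected.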
